A study of Mus musculus with 112 samples.

Results

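The stromal collagen and matrix genes are 38 genes whose products form or assemble the extracellular matrix of connective tissue. They were chosen by gene symbol, and every probe set that carried the symbol of 1 of these genes and of no other gene was taken. Of the 38 genes, 36 had such a probe set, 65 probe sets of 36 genes on the first array type (MOE430A, called array A) and 14 probe sets of 12 genes on the second (MOE430B, called array B). They stand among 22626 probe sets of array A, 22511 of array B and 18193 genes named in all. Fbn1 and Loxl2 were not analysed here.

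The tissue was spontaneous mammary tumour from 56 mice, each of which carried the MMTV-PyMT transgene, polyoma virus middle T antigen driven in mammary epithelium by the promoter of mouse mammary tumour virus. The mice were AKXD x PyMT crosses with 18 AKXD sublines, recombinant inbred lines that derive from AKR/J and DBA/2J. Sublines 2, 3, 7, 9, 10, 11, 13, 14, 16, 18, 20, 21, 22, 23, 24, 25, 27 and 28 were used, with 3 tumours in 16 sublines and 4 in the other 2, sublines 2 and 25. All groups share the transgene, no subline is a control, no age is in the labels, and whole tumour RNA was measured on both arrays as RMA values (log2 intensity).

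Fibrillar collagens are secreted as procollagens, trimmed outside the cell and cross-linked by lysyl oxidases into the fibres that give tissue its strength. Small leucine-rich proteoglycans bind these fibres, elastin is laid down on microfibrils, and type IV collagen with nidogen forms the sheet-like basement membrane under epithelium and around vessels. In mammary tumours most fibrillar matrix is made by fibroblasts of the stroma, while basement membrane is made by several cell types. RNA of a whole tumour cannot tell fewer stromal cells from less RNA per stromal cell.

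Arrays that resembled the rest poorly were left out before the comparisons, which kept 52 arrays A in 17 sublines and 53 arrays B in 18 sublines. On array A all 3 tumours of subline 23 and tumour 3 of subline 25 were left out (median correlation with the other arrays 0.223 to 0.948), and the kept arrays read at least 0.970. Array B was left out for tumour 3 of subline 11, tumour 2 of subline 23 and tumour 3 of subline 25. The bacterial control probe sets, which should find no target, had medians of 4.53 to 4.97 on the kept arrays A and 4.31 to 4.61 on the kept arrays B. Of the member probe sets, 1 of 65 on array A and 3 of 14 on array B had a mean under the highest of these medians. The brightest single control read higher, 6.82 to 7.42 on the kept arrays A and 6.42 to 7.12 on the kept arrays B. Among the members with means below those ranges were Thbs2 (6.18) and Dcn (6.34) on array B and Nid2 (6.33) on array A. The 10 luminal epithelial markers had means of 9.02 to 13.12.

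Most matrix genes varied from tumour to tumour by several fold, and most of them varied together. The SD over tumours of the 65 member probe sets on array A had a median of 0.38 (log2), against 0.15 for all probe sets. Of the 65, 50 had an SD above that of 90% of all probe sets. The 65 were also brighter, with a median level of 9.47 against 7.87 for all. On array B the median SD was 0.12 for members and 0.13 for all, and 1 of 14 members passed the 90% mark. The median levels there were 6.26 and 6.35. Of 22 genes with several probe sets on array A, 21 had all pairs of them correlated above 0.5; the exception was Lox, with a dim probe set at a mean of 5.14. Col3a1, the alpha chain of type III collagen, served as the reference for the shared movement. Its level was 10.70 in the lowest tumour, 12.72 in the median tumour and 13.24 in the highest, a 5.83-fold range. Tumour 2 of subline 28 stood lowest, and the next was tumour 2 of subline 27 at 11.85. The highest were tumour 3 of subline 20, tumour 2 of subline 13 and tumour 1 of subline 24.

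**Figure D1:**
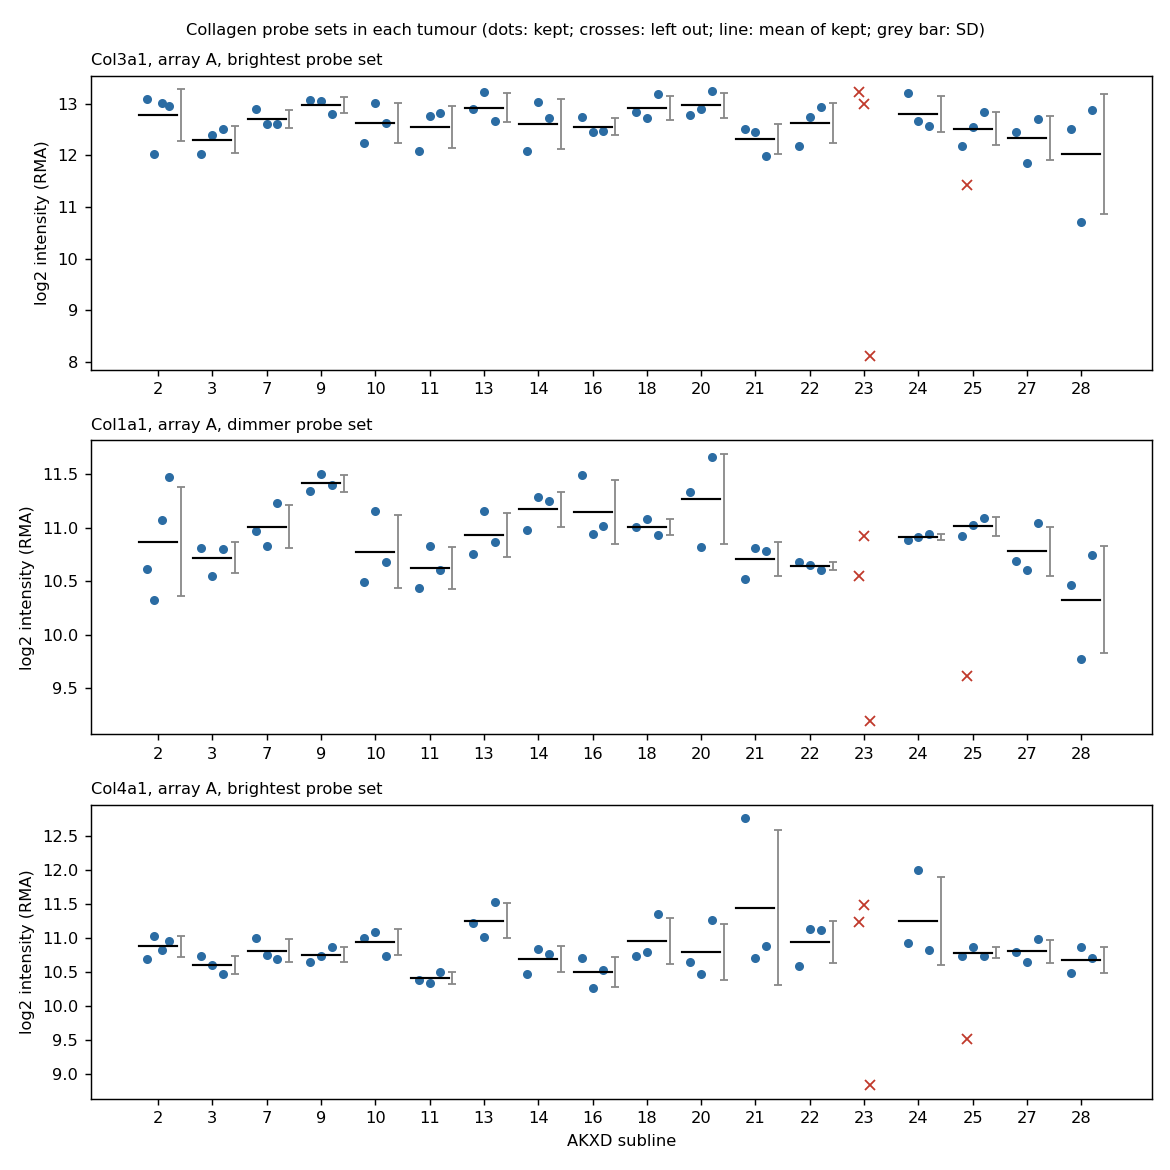
Level of Col3a1, Col1a1 and Col4a1 (log2 intensity, vertical axes) in each tumour of each AKXD subline (horizontal axis) on array A; dots are kept tumours, crosses are tumours left out, black lines are means of the kept tumours and grey bars their SD. For Col3a1, tumour 2 of subline 28 lies at 10.70, and for Col4a1, tumour 1 of subline 21 lies at 12.75, while most sublines overlap.

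Every other probe set of array A was correlated with Col3a1 over the 52 tumours, by a two-sided permutation test of Pearson's r with 100000 resamples and Benjamini-Hochberg adjustment over all 22625. An adjusted p under 0.05 is called. Of the 64 other member probe sets, 45 were called with a positive correlation and 0 with a negative one, against 4.77% of all probe sets called positive and 4.51% called negative. The median correlation was 0.69 over the member probe sets and -0.05 over all probe sets. By the brightest probe set of each gene, 24 of 35 genes were called, against 4.89% of all genes. For 22 of these 24 p was 1e-05, the smallest that the resamples can give (adjusted p = 0.000658), for Pearson's r and for Spearman's rho. Deviations from the subline mean, resampled within sublines, gave 42 of 64 probe sets, against 4.53% of all, so the correlation was present between tumours of the same subline.

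**Figure D2:**
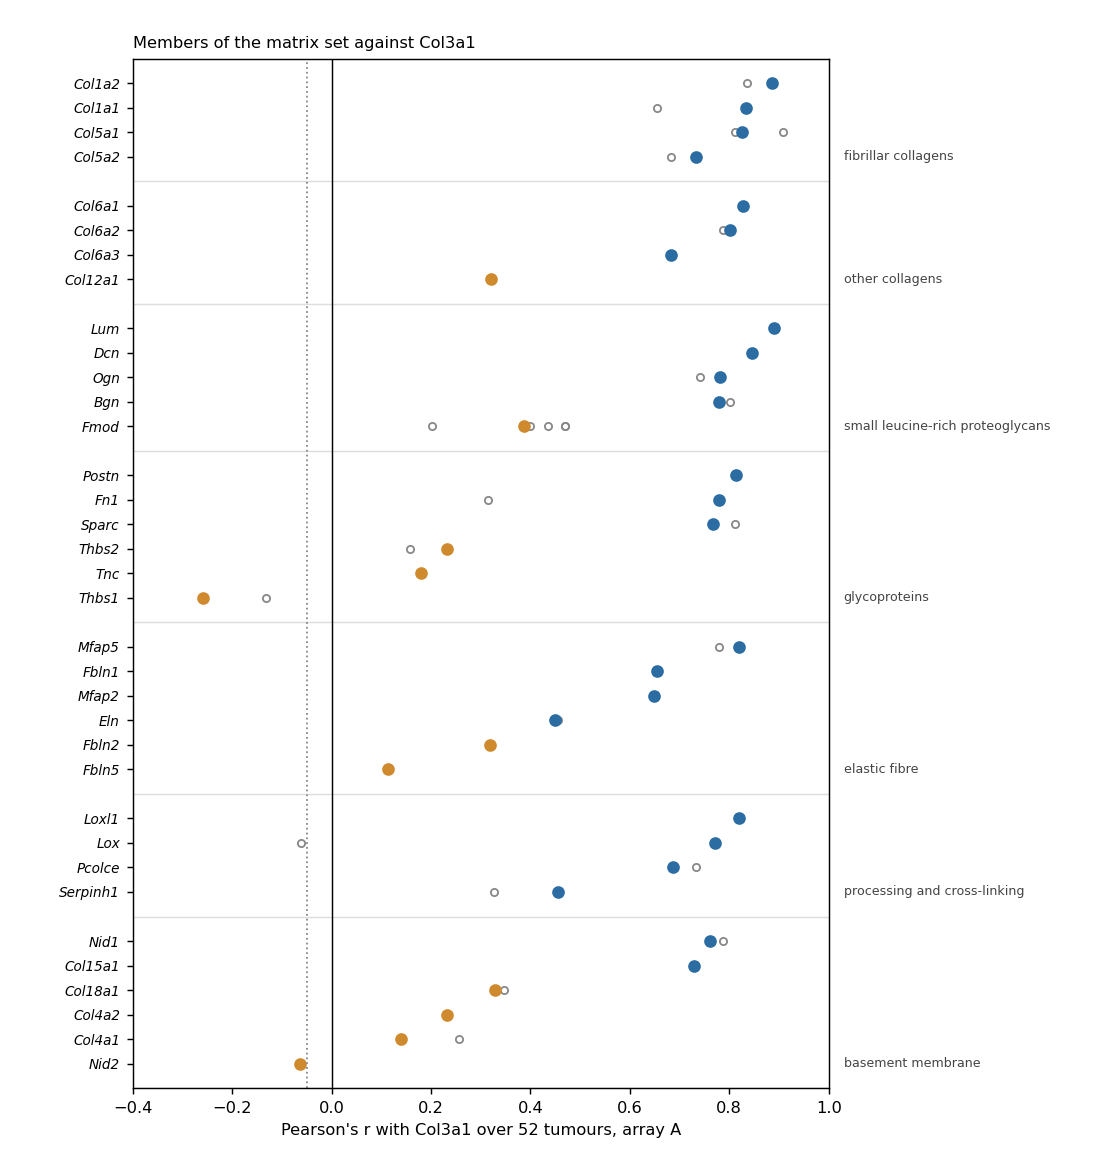
Pearson's r with Col3a1 over 52 tumours (horizontal axis) for each other matrix gene on array A, grouped by role. Filled dots are the brightest probe set of a gene, blue where called and orange where not; open dots are its other probe sets, and the dotted line is the median of all probe sets, -0.05. The 4 fibrillar collagens lie between 0.73 and 0.89 and Thbs1 lies at -0.26.

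The fibrillar collagens moved with Col3a1 in all 4 cases. Col1a2, a chain of type I collagen, ran from 11.11 through a median of 12.54 to 13.17, with r = 0.89 and rho = 0.84. Col1a1, the other chain of type I collagen, ran from 10.76 through 12.27 to 13.01 (r = 0.83, rho = 0.76). Both were lowest in tumour 2 of subline 28, as Col3a1 was. Col5a1, a chain of type V collagen, which helps to start fibrils, had r = 0.83 on its brightest probe set and 0.91 on another, the highest of any member apart from the second Col3a1 probe set at 0.95. Col5a2, its partner chain, ran from 9.47 through 10.82 to 12.41 (r = 0.73, rho = 0.82). Its highest tumour was tumour 1 of subline 21, which was not high for Col3a1. Without the 2 tumours farthest from the Col3a1 median, r was 0.83 for Col1a2, 0.74 for Col1a1, 0.76 for Col5a1 and 0.60 for Col5a2.

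The promoters of Col3a1 and Col1a2, which moved together, are shown with that of Bgn, another gene that moved with them, and that of Thbs2, which did not. Each is the 250 bases before the gene's first base from RefSeq (GRCm38.p6), 5′ to 3′ on the gene's strand. Capitals mark matches on either strand to any of 6 motifs, none of which contains another. The first is TATAAA, known as the element that places the start of transcription in many tissue-specific genes. Another is CCAAT, which is bound by the factor NF-Y in many promoters. The Sp1 family of factors is known to bind GGGCGG, and that motif is common in promoters rich in these bases. The AP-1 factors, dimers of Jun and Fos proteins, are known for TGANTCA in their target genes. The SMAD proteins, which carry the TGF-beta signal into the nucleus, can bind CAGACA in the promoters of their targets. The TEAD factors, partners of YAP in the Hippo pathway, are known to bind GGAATG in the genes that they control. The windows are chr1:45311288-45311537 on the plus strand for Col3a1, chr6:4505368-4505617 on the plus strand for Col1a2, chrX:73483351-73483600 on the plus strand for Bgn and chr17:14694263-14694512 on the minus strand for Thbs2.
Col3a1: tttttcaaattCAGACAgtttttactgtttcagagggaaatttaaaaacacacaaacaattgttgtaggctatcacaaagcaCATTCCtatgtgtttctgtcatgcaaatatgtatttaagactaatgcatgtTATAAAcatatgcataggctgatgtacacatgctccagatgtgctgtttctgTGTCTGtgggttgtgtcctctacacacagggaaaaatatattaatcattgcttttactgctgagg
Col1a2: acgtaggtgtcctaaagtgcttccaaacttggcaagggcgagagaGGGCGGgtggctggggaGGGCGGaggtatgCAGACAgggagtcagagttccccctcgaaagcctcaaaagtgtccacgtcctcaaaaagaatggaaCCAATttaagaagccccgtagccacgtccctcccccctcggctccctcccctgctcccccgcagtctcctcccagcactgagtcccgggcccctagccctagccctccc
Bgn: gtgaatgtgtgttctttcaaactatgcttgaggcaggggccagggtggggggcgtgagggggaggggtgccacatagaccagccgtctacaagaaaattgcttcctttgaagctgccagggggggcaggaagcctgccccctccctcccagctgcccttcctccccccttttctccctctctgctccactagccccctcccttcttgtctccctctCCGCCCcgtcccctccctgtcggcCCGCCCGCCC
Thbs2: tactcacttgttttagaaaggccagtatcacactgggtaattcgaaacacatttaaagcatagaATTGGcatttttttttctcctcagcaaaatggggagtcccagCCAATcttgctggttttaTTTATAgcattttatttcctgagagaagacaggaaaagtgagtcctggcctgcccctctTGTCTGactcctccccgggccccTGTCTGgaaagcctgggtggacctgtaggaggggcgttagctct
The Col3a1 window has a TATA match that begins 117 bases before the start and a GC content of 35.2%. The Col1a2 window has 2 Sp1 matches, which begin 205 and 188 bases before the start, and an NF-Y match at 109, with a GC content of 62%. The Bgn window ends in overlapping Sp1 matches on the other strand, has matches to no other motif and has 64.4% GC. SMAD matches begin at 239 and 65 in the Col3a1 window and at 175 in that of Col1a2. The Thbs2 window has a TATA match at 126, NF-Y matches at 186 and 144, SMAD matches at 67 and 44, and 46.8% GC. The TATA, NF-Y and SMAD matches thus do not set Thbs2 apart from the other windows. A window was found for 25 members, and the Sp1 motif was in 15 of them (60%), against 35.4% of the 27025 genes in the table. The SMAD motif was in 11 (44%, against 19.3%), the NF-Y motif in 8 (32%, against 37.5%) and the TEAD motif in 6 (24%, against 14.4%). The TATA motif was in 5 (20%, against 14.3%) and the AP-1 motif in 1 (4%, against 7.82%). The median GC content was 59.2% in the members and 52.8% in all genes. These are matches of letters and say nothing on whether a factor is bound.

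Type VI collagen forms beaded filaments near cells, and its 3 chains moved with Col3a1. Col6a1 ran from 8.91 through 10.13 to 10.84 (r = 0.83), Col6a2 from 9.80 through 11.12 to 11.81 (r = 0.80) and Col6a3 from 9.59 through 10.42 to 11.35 (r = 0.68). Col12a1, a collagen that sits on the surface of fibrils, was not called (8.68, 9.67 and 10.35; r = 0.32, adjusted p by the permutation test = 0.122).

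Small leucine-rich proteoglycans had the widest spread among the roles, with a median SD of 0.64 over the brightest probe sets of their 5 genes. Lum, lumican, ran from 7.33 through 9.92 to 11.01, a 12.8-fold range, and had the highest correlation among the brightest probe sets (r = 0.89, rho = 0.82; 0.82 without the 2 farthest tumours). Dcn, decorin, which binds type I collagen and TGF-beta, ran from 8.54 through 10.44 to 11.69 (r = 0.85, rho = 0.81). Ogn, osteoglycin, ran from 5.92 through 7.57 to 8.84 (r = 0.78), and Bgn, biglycan, from 10.18 through 11.42 to 12.28 (r = 0.78). Fmod, fibromodulin, was not called on its brightest probe set (7.23, 7.74 and 8.78; r = 0.39, adjusted p by the permutation test = 0.0748), but 4 of its 5 other probe sets were, the dimmest with a mean of 4.53, at the low end of the bacterial controls. Lum, Dcn, Ogn and Bgn were all lowest in tumour 2 of subline 28.

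Of the glycoproteins, 3 of 6 genes moved with Col3a1. Postn, periostin, ran from 10.49 through 11.91 to 12.65 (r = 0.81), Fn1, fibronectin, from 9.88 through 11.18 to 11.92 (r = 0.78), and Sparc, a collagen-binding protein, from 11.35 through 12.34 to 13.37 (r = 0.77). Thbs1, thrombospondin 1, an inhibitor of angiogenesis that can activate latent TGF-beta, was not called (r = -0.26, adjusted p by the permutation test = 0.236). Thbs2, its relative thrombospondin 2 (r = 0.23), and Tnc, tenascin C (r = 0.18), were not called either.

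Of the elastic fibre genes, 4 of 6 moved with Col3a1. Mfap5, a microfibril protein, had the highest correlation of them (8.09, 9.80 and 10.67; r = 0.82). Fbln1, fibulin 1 (r = 0.66), Mfap2, another microfibril protein (r = 0.65), and Eln, elastin (8.87, 10.09 and 12.40; r = 0.45, rho = 0.52, adjusted p by the permutation test = 0.0487), were also called. For Eln r was 0.29 without the 2 farthest tumours, so its relation to Col3a1 rests in part on them. Fbln2 (r = 0.32) and Fbln5 (r = 0.11), fibulins of elastic fibres, were not called.

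The 4 genes measured for the processing of collagen were all called with Col3a1. Loxl1, a lysyl oxidase of elastic fibres, ran from 8.27 through 9.46 to 10.64 (r = 0.82, rho = 0.86). Lox, the main lysyl oxidase, had r = 0.77, and Pcolce, which enhances the trimming of procollagen, had r = 0.69. Serpinh1, the collagen chaperone of the endoplasmic reticulum, had the smallest correlation of the role (10.11, 10.52 and 11.40; r = 0.46, rho = 0.47, adjusted p by the permutation test = 0.027).

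Of the basement membrane genes, only 2 of 6 were called with Col3a1, among the genes tested here. Nid1, nidogen 1, ran from 7.95 through 8.94 to 9.79 (r = 0.76) and Col15a1, a collagen of the zone between basement membrane and fibrils, from 7.60 through 8.91 to 9.46 (r = 0.73). Col4a1 (10.26, 10.75 and 12.75; r = 0.14), Col4a2 (9.26, 9.77 and 12.08; r = 0.23), Col18a1 (8.76, 9.04 and 9.49; r = 0.33) and Nid2, nidogen 2 (5.98, 6.27 and 8.53; r = -0.06), were not. By rank, rho with Col3a1 was 0.30 for Col4a1 and 0.49 on its other probe set, which was of like brightness (mean 10.84 against 10.85). For Col4a2 rho was 0.41, for Col18a1 0.28 and for Nid2 -0.12.

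**Figure D3:**
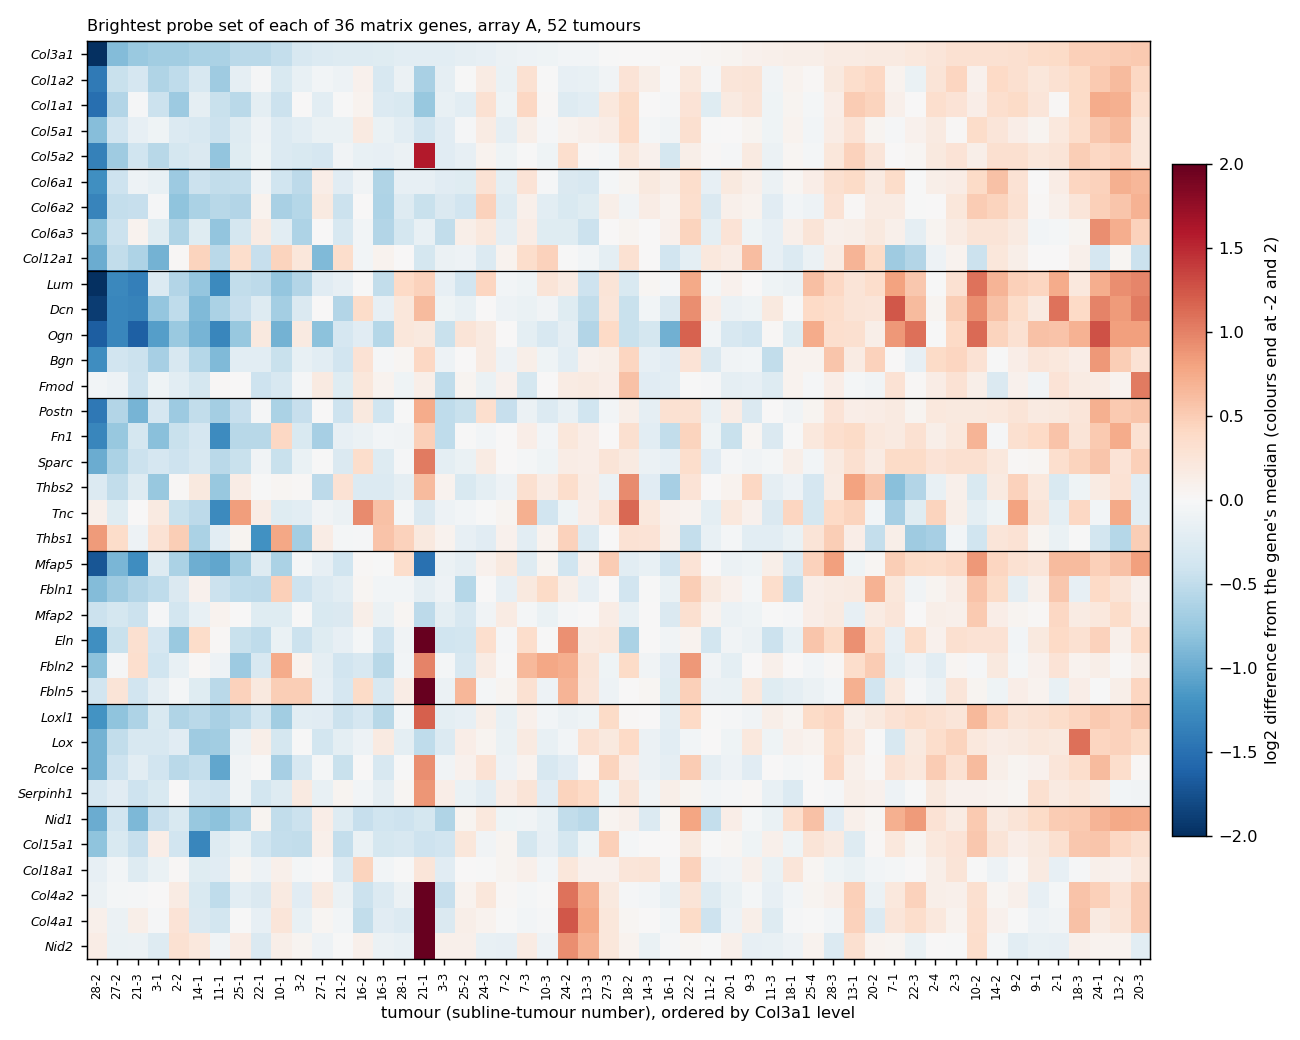
Log2 difference of each of 36 matrix genes (rows, by role) from its own median in each of 52 tumours (columns, ordered by Col3a1 level) on array A; the label gives subline and tumour number, and colours end at -2 and 2. Tumour 2 of subline 28, at the left, is low in most rows, and tumour 1 of subline 21 is high for Col4a1, Col4a2, Nid2, Eln, Fbln5 and Col5a2 and low for Mfap5.

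Other groups appeared with other references. With Col4a1 as the reference, 16 of 64 other member probe sets were called positive, against 2.17% of all probe sets. Col4a2 partners with Col4a1 in the type IV collagen helix and starts close to it on the opposite strand in RefSeq. It followed Col4a1 in nearly every tumour (r = 0.96, rho = 0.91, permutation test p = 1e-05, the smallest the resamples give). Without the 2 tumours farthest from the Col4a1 median r was 0.92. Nid2 (r = 0.80, rho = 0.36), Fbln5 (r = 0.71, rho = 0.44) and Eln (r = 0.65, rho = 0.35) were also called. These rest on tumour 1 of subline 21 and tumour 2 of subline 24. These are the 2 tumours farthest from the median, and without them r was 0.41 for Nid2, 0.37 for Fbln5 and 0.29 for Eln, and only Col4a2 and the second Col4a1 probe set of the members were called, against 0.0884% of all probe sets.

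Thbs2, with its brightest probe set as the reference, was followed by Col12a1 (r = 0.70; 0.69 without the 2 tumours farthest from the Thbs2 median), Col5a2 (r = 0.56) and Serpinh1 (r = 0.50), and by its own second probe set (r = 0.89). These are 4 of 64 probe sets, against 0.248% of all probe sets, and without the 2 farthest tumours they were 6, against 1.38%. Thbs2 ran from 8.32 through 9.15 to 10.10 and was highest in tumour 2 of subline 18. The references Col4a1 and Thbs2 were chosen after the correlations with Col3a1 were seen.

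**Figure D4:**
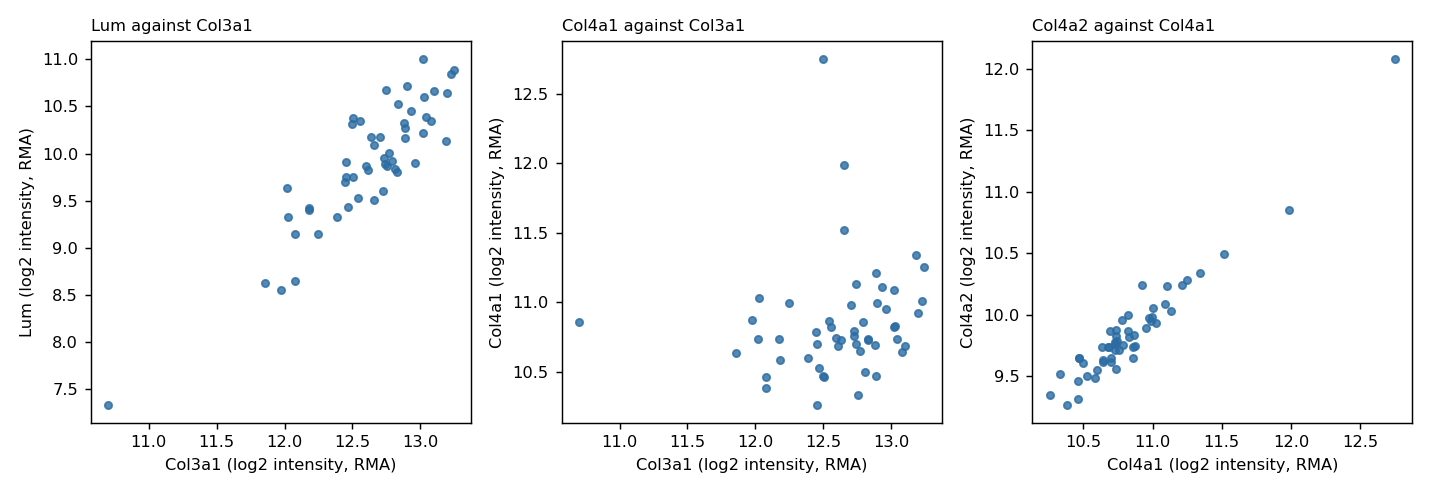
Levels (log2 intensity on both axes) of Lum against Col3a1, of Col4a1 against Col3a1 and of Col4a2 against Col4a1 in 52 tumours on array A, each dot a tumour. Lum follows Col3a1 (r = 0.89), while Col4a1 was not called with it (r = 0.14, rho = 0.30). Col4a2 follows Col4a1 (r = 0.96), with tumour 1 of subline 21 at the top right where Col4a2 is plotted.

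Tumour 1 of subline 21 was the highest of the 52 tumours for 12 of 36 member genes, spread over several roles. These were Col4a1, Col4a2, Nid2, Eln, Fbln2, Fbln5, Loxl1, Pcolce, Serpinh1, Postn, Sparc and Col5a2. Other genes of the same roles were below their medians in it, such as Nid1 at 8.60 and Mfap5 at 8.30, and Mfap2 was the lowest of all tumours. Its levels were 12.75 for Col4a1, 12.08 for Col4a2, 8.53 for Nid2, 12.40 for Eln and 10.65 for Fbln5. Col3a1 read 12.50 in it. Of the marker lists, its mean level of 10 cartilage markers, Col2a1, Col9a1 and Col11a1 among them, was 9.71, against 7.03 to 8.24 in tumours of other sublines, and its mean level of 10 luminal epithelial markers was 10.67, against 11.35 to 11.87. Its mean level of 20 fibroblast and pericyte markers was 9.21, above the 7.84 to 9.10 of other sublines, and that of 11 cell cycle genes was 9.14, below their 9.31 to 10.23. Their part in the matrix levels was not tested. Tumour 2 of subline 28 was the lowest for 23 of 36 member genes, and its median difference from the gene medians was -0.97 over the 36. Its Gapdh control signal was 0.0932 higher at the 3′ end than at the 5′ end, where the kept arrays had a median of -0.179. Its mean levels of 20 fibroblast and pericyte markers (7.84), 10 endothelial markers (7.68) and 8 macrophage markers (8.55) were below those of all other tumours, and its luminal epithelial level was 11.77. The part of these measures in its matrix levels was not tested.

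Whether the sublines differ in these genes was tested next, by the moderated F test of limma over subline means with Benjamini-Hochberg adjustment over all probe sets of an array. On array A 0 of the 65 member probe sets were called, against 1.74% of all probe sets. At an unadjusted p under 0.05 there were 9, which is 13.8%, against 15.2% of all probe sets. With array quality weights 33 were called, but so were 9234 of all 22626. On array B 1 of 14 was called, against 0.671% of all probe sets. At an unadjusted p under 0.05 there were 3 on array B, which is 21.4%, against 11% of all probe sets. The share of variance that lay between sublines had a median of 6.35% over the 65 probe sets, against 4.82% over all probe sets of array A. The SD within sublines had a median of 0.37 over the member probe sets, close to the 0.38 over all tumours.

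The probe set nearest to a call on array A was the dimmer one of Col1a1. The lowest subline mean was 10.33 ± 0.50 (SD, n = 3) for subline 28. The highest was 11.42 ± 0.08 (SD, n = 3) for subline 9, and the limma F test gave an adjusted p of 0.073. In subline 9 the tumours read 11.34, 11.51 and 11.40, and in subline 28 they read 10.47, 9.78 and 10.75. These groups did not overlap, but they were picked as the highest and lowest means. Against the mean of the other sublines, subline 28 had a log2 difference of -0.61 ± 0.16 (SE, limma adjusted p = 0.0664). Without its tumour 2 the difference was -0.33 ± 0.17 (SE, limma adjusted p = 0.821). The brightest Col1a1 probe set, which correlated with it at 0.66, was not called. The dimmer one was called with composition covariates (limma adjusted p = 0.0486), and its adjusted p ran from 0.000715 to 0.81 over the alternatives. The next were a dimmer probe set of Fmod (adjusted p by limma = 0.147) and the dimmer probe set of Thbs2 (0.152).

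Thbs2 was the member called on array B. Its level there was 5.83 in the lowest tumour, 6.16 in the median tumour and 6.97 in the highest. The subline means ran from 5.97 ± 0.11 (SD, n = 3) for subline 27 to 6.76 ± 0.31 (SD, n = 2) for subline 23, with a limma F test adjusted p of 0.0451. Subline 23 was also called in the comparison of each subline with the mean of the others, at a log2 difference of 0.60 ± 0.12 (SE; 1.52-fold higher, limma adjusted p = 0.00151), against 1.19% of probe sets higher in that subline. Its 2 kept tumours read 6.97 and 6.54, and the tumour left out read 5.92; array A was left out for this subline. Tumour 1 of subline 23 had a Gapdh control signal 1.23 higher at the 3′ end than at the 5′ end, and without it neither call was made (F test adjusted p over all alternatives 0.000375 to 0.61). Subline 23 then has 1 tumour, assumed to vary like the other groups, and the log2 difference was 0.39 ± 0.16 (SE). With all 56 arrays it was 0.33 ± 0.11 (SE; limma adjusted p = 0.137). The part of RNA quality in this result was not tested.

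Thbs1 was lower in subline 22 on both of its probe sets. On the brightest, the 3 tumours read 9.36, 10.09 and 9.86, with a mean of 9.77 ± 0.38 (SD), and the other tumours averaged 10.60. The log2 difference was -0.83 ± 0.21 (SE; 1.78-fold lower, limma adjusted p = 0.0143). On the other probe set the tumours read 8.41, 9.38 and 9.28, and the difference was -0.93 ± 0.22 (SE; 1.90-fold lower, limma adjusted p = 0.0105). The tumours of subline 22 overlapped with the low tumours of other sublines. In that subline 2.56% of all probe sets were called lower and 0.959% higher. Tumour 1 decided the call: without it the differences were -0.63 and -0.62 and the limma adjusted p values 0.252 and 0.291. With all 56 arrays they were 0.524 and 0.405. Tumours 1 and 2 had Gapdh 3′ minus 5′ differences of 0.0943 and 0.0886, against a median of -0.179 over the kept arrays, and tumour 3 had -0.124. The part of RNA quality in the Thbs1 result was not tested. Subline 28 lay at the other end, with 11.02, 11.42 and 11.07 on the brightest probe set, and was not called.

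Mfap5 was lower in subline 21. On its dimmer probe set the tumours read 7.89, 8.41 and 7.88, against a mean of 8.87 in the other tumours, a log2 difference of -0.80 ± 0.23 (SE; 1.75-fold lower, limma adjusted p = 0.0441). On the brightest probe set they read 8.30, 9.40 and 8.56, and the difference of -1.04 ± 0.33 (SE) was not called (limma adjusted p = 0.0729; 0.0262 without tumour 2 of subline 28). The lowest tumours of other sublines overlapped with them. In subline 21, 0.99% of all probe sets were called lower and 2.41% higher. The Mfap5 call was lost without tumour 1 (limma adjusted p = 0.227) or tumour 3 (0.179) of the subline, with composition covariates (0.134) and with all 56 arrays (0.182). With these covariates, adipocyte and skeletal muscle scores, the difference was -0.51 ± 0.18 (SE). The mean level of 8 adipocyte markers was 7.07 to 7.37 in these tumours, against a median of 7.98 in the others, and that of 10 skeletal muscle markers was 6.80 to 8.80, against 9.59. Tumour 3 had the highest Gapdh 3′ minus 5′ difference of the kept arrays, 0.189, and the part of RNA quality in the Mfap5 result was not tested. In the same subline 5 of 16 luminal epithelial probe sets were called lower. The mean level of 10 luminal epithelial markers was 10.67 in tumour 1, 11.60 in tumour 2 and 11.57 in tumour 3. In tumours of other sublines it was 11.35 to 11.87, so only tumour 1 lay below their range.

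Other members of subline 21 came near to a call. Col4a1, Col4a2, Nid2 and Eln were higher on average by 0.63 to 0.82 (limma adjusted p 0.0702 to 0.0945), but tumours 2 and 3 lay within the range of the other sublines. Without tumour 1 the difference was -0.03 for Col4a1, -0.13 for Col4a2, -0.08 for Nid2 and 0.07 for Eln. Without tumour 2 all 4 were called (limma adjusted p 0.00512 to 0.00664). Mfap2 read 8.64, 8.87 and 8.72 in subline 21, against 9.16 in the other tumours (limma adjusted p = 0.0673; 0.0473 without tumour 2 of subline 28).

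**Figure D5:**
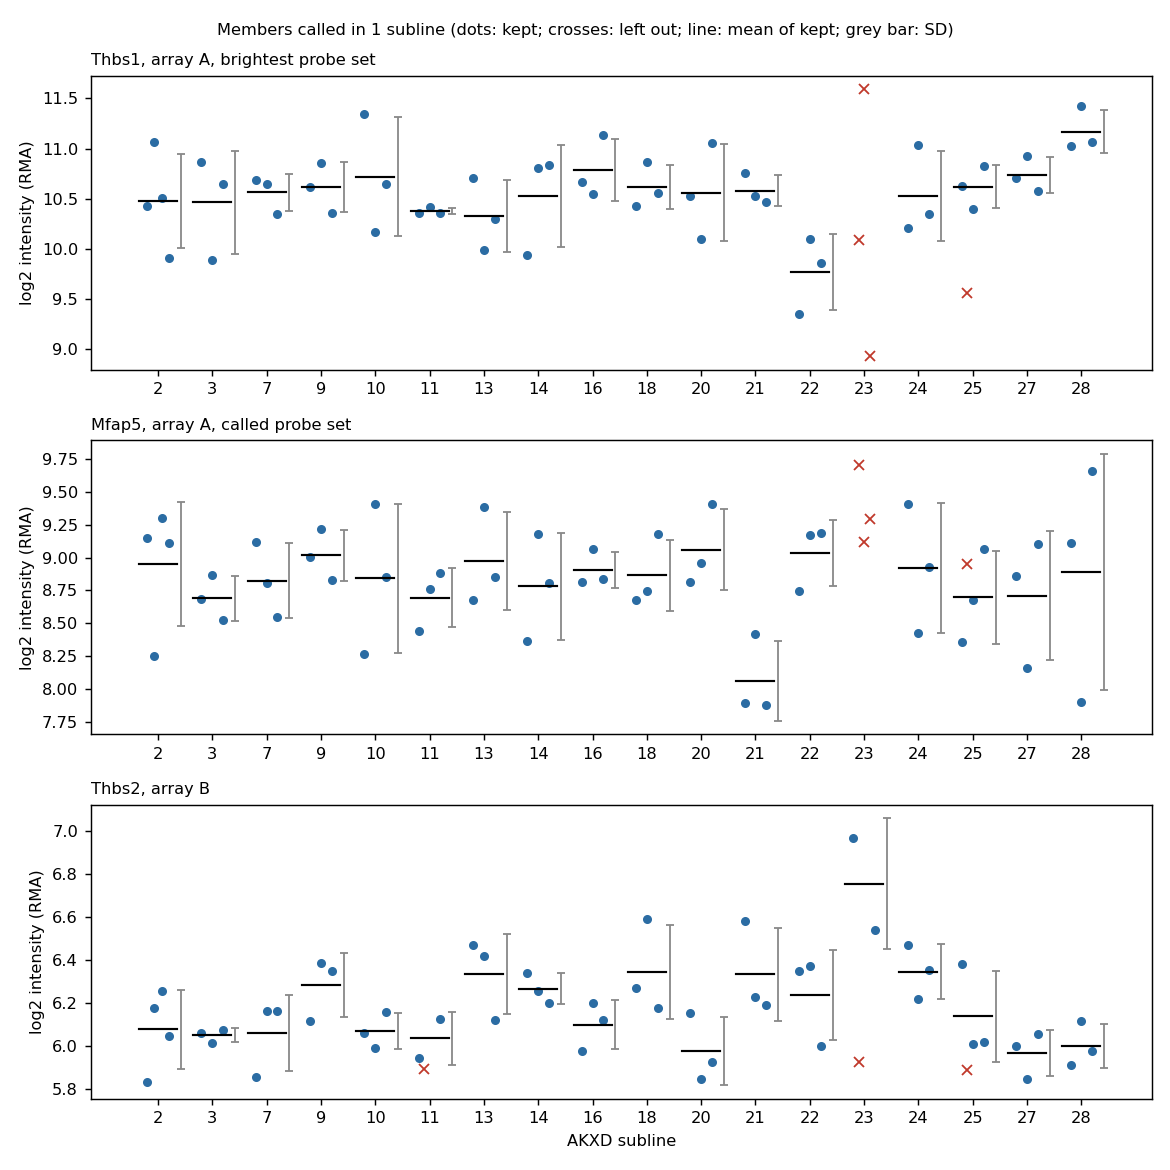
Level (log2 intensity, vertical axes) of the brightest Thbs1 probe set and of the called Mfap5 probe set on array A and of Thbs2 on array B, in each tumour of each subline (horizontal axis). Dots are kept tumours, crosses tumours left out, black lines means of the kept tumours and grey bars their SD. Thbs1 is low in subline 22 (mean 9.77), Mfap5 in subline 21 (mean 8.06), and Thbs2 is high in subline 23 (mean 6.76).

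In all, 3 of 1105 comparisons of a member probe set with a subline were called on array A and 1 of 252 on array B, against 0.459% and 0.276% of all such comparisons. No member was called higher in any subline on array A. Of the sublines, 13 had 61 of 65 member probe sets above the mean of the other sublines, with a median difference of 0.21, and subline 3 had 2 of 65 above it, with a median of -0.24. Since most members move together, these counts are not of independent genes, and none of those probe sets was called.

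Where array B holds a second measurement of a gene, it can be set against array A over the 51 tumours kept on both. Of 12 members, 5 agreed by a two-sided permutation test of Pearson's r (10000 resamples, adjusted over 3729 genes), against 25.1% of all genes on both arrays. These were Loxl1 (r = 0.74, rho = 0.69), Thbs2 (r = 0.68, rho = 0.65), Col12a1 (r = 0.63, rho = 0.58), Tnc (r = 0.58, rho = 0.60) and Mfap2 (r = 0.45, rho = 0.48). By this permutation test Loxl1, Thbs2, Col12a1 and Tnc had p = 0.0001, the smallest these resamples give (adjusted p = 0.000964), and Mfap2 had an adjusted p of 0.0057. Leaving out the 2 tumours farthest from the median on array A gave r of 0.69, 0.61, 0.58, 0.55 and 0.39. Col1a2, Dcn, Fbln1, Fbln2, Fbln5, Nid1 and Sparc were not called, and the array B probe sets of Col1a2 (mean 4.66), Fbln2 (4.22) and Nid1 (4.03), as well as that of Tnc (4.61), read near the bacterial controls.

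Genes around the matrix set were read from lists. Over all genes, 4.89% were called positive with Col3a1 and 4.81% negative. The counts below for collagen enzymes and matrix receptors lie near these shares. Of 39 other matrix genes, 16 were called positive with Col3a1 and 0 negative, among them Ccdc80 (r = 0.89), Dpt, dermatopontin (r = 0.84), and Col14a1, a collagen on the surface of fibrils (r = 0.84). Of 18 enzymes and helpers of collagen synthesis, 1 was called positive, Bmp1, the proteinase that trims procollagen (r = 0.50), and 1 negative, P4ha2, a prolyl hydroxylase (r = -0.43). Of 17 genes of the TGF-beta pathway, 4 were called positive and 1 negative. The first were Eng, endoglin (r = 0.65), Tgfb1, the ligand (r = 0.59), and Tgfbr2, its receptor (r = 0.56). Without the 2 tumours farthest from the Col3a1 median r was 0.62 for Eng, 0.40 for Tgfb1 and 0.60 for Tgfbr2. Of 16 matrix receptors only Itgb3, integrin beta 3, was called (r = 0.42, and 0.31 without those 2 tumours). Among sublines, 2 of 62 probe sets of the other matrix genes and 3 of 45 of the receptors were called by the limma F test, against 1.74% of all probe sets; the genes with the smallest p were Lamb1, a laminin chain (adjusted p = 0.0169), and Sdc4 and Sdc2, syndecans (0.00222 and 0.0141).

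Markers of stromal and other cell types moved with Col3a1 to different extents. Their lowest mean levels were 4.24 among the T cell markers and 4.90 among the cartilage markers, under the highest bacterial control median of 4.97. Of 20 fibroblast and pericyte markers 12 were called positive, with Dpt (a gene of the other matrix list too), Pi16 (r = 0.80) and Pdgfra (r = 0.78) first. All 8 macrophage markers were called, first Mrc1 (r = 0.84), C1qc (r = 0.77) and C1qb (r = 0.75), as were 7 of 10 endothelial markers, first Pecam1 (r = 0.73), and 6 of 8 adipocyte markers, first Adipoq (r = 0.59). None of 9 T cell, 10 skeletal muscle, 10 luminal epithelial, 10 basal and 10 cartilage markers was called, and their medians of r were 0.16, 0.28, -0.06, 0.12 and -0.09. By rank, Myh11 of the basal markers had rho = 0.49. Myl1, Ckm and Pvalb of muscle had rho of 0.46, 0.41 and 0.40, and Col9a1 of cartilage had -0.32. Of 11 cell cycle genes 5 were called negative, first Top2a (r = -0.50), Bub1 (r = -0.48) and Cdk1 (r = -0.46). Without the 2 tumours farthest from the Col3a1 median r was -0.46 for Top2a, -0.38 for Bub1 and -0.33 for Cdk1. The background for these counts is 4.89% of genes positive and 4.81% negative. The part of these cell types in the matrix levels was not tested.

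The Gapdh control signal was related to Col3a1 as well: its 3′ minus 5′ difference had r = -0.43 with Col3a1 over the 52 tumours (two-sided permutation test, p = 0.00265, adjusted over 4 array measures 0.0106; rho = -0.29, p = 0.0382), and -0.30 without the 2 farthest tumours. The same difference for Actb (r = -0.22), the median correlation with the other arrays (r = 0.23) and the bacterial control level (r = -0.08) had adjusted p values of 0.156, 0.156 and 0.579. The part of RNA quality in the shared movement was not tested.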

How the data were processed

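Each of 56 tumours was hybridised to 2 Affymetrix arrays. The deposited values are log2 intensities made with RMA by the authors, per the submitters' processing notes (which version, probe set definition and build is not stated in the labels or headers). Per the file headers all 112 columns belong to this series. RMA values carry no depth, and the number of arrays sets the precision. Per array, 64 control probe sets were left out. Symbols came from the platform annotation, updated through RefSeq (GRCm38.p6). On array A 20380 probe sets had 1 symbol, 691 several and 1555 none (14661, 245 and 7605 on array B).

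Sublines were compared with limma 3.58.1 in R 4.3.3 (1 mean per subline, 35 residual degrees of freedom on each array; each subline against the unweighted mean of the others, adjusted within each comparison). The labels call tumours of a subline biological replicates. Correlations used Python 3.11.15, numpy 2.4.6 and scipy 1.17.1. No 2 arrays held identical values (pairs: 0). Scripts were tested on simulated data. Members, lists, left-out arrays and the Col3a1 reference were chosen with earlier results of these data known. Named were all 38 members, in full those called and the first 2 of each role by brightness, and up to 3 genes of each other list by each test. The alternatives were other arrays kept, normalization, weights, priors, covariates, references and left-out tumours.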

Additional observations from a re-analysis of the deposited data

Results flagged for a closer look

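Only subline 2 has 4 kept tumours, so 48 sets of 4 values (the brightest probe set of each member on each array) were checked for a tumour that stands apart by Dixon's ratio, the gap to the nearest tumour over the range. Chance flags about 1 in 20, and 8 of the 48 were flagged. The share of all probe sets flagged in this way was not counted, so the 8 are not read as particular to matrix genes. On array A 7 of them concern tumour 2 of subline 2, which was the lowest each time: Col3a1 at 12.03 (the others 12.96 to 13.10), Postn at 11.19 (12.11 to 12.13), Sparc at 11.92 (12.62 to 12.68), Col5a2 at 10.47 (11.01 to 11.10), Col6a1 at 9.40 (10.24 to 10.29), Loxl1 at 8.85 (9.70 to 9.82) and Col15a1 at 8.52 (9.12 to 9.23). These genes move together over all tumours, so the 7 are not independent. On array B Dcn read 6.16 in tumour 3 of subline 2, against 6.32 to 6.35.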

How the results depend on the processing

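The count of member probe sets called among sublines on array A, 0 of 65, was 0 with all 56 arrays, quantile normalization, median centring, a trended robust prior and without the dimmer part of the probe sets, and 1 with the replicate number as a block (Col1a1, adjusted p 0.0424 by limma), 2 with composition covariates (adipocyte and skeletal muscle scores), 33 with array quality weights, where 9234 of 22626 probe sets were called, and 0 to 1 when replicates were left out. On array B the 1 call was kept with the trended prior, became 0 with all 56 arrays, the block, quantile normalization, median centring, without the array with a high Gapdh 3′ signal, and in each leave-one-out fit (0 to 0), and became 4 with weights (4798 of 22511 probe sets). It was 0 too without the dimmer part and with composition covariates, but the former removes the called Thbs2 probe set and the latter removes subline 23, so neither tests that call. Calls of single sublines numbered 3 on array A and 3 with the block, 23 with all 56 arrays, 66 with weights, 5 without the dimmer part, and 0 to 11 with replicates left out (1 without tumour 1 of subline 22, 10 without tumour 2 of subline 21). On array B they numbered 1, then 2 with quantile normalization, 9 with weights, 0 without the dimmer part (which removes the called Thbs2 probe set), 0 without the array with a high Gapdh 3′ signal, and 1 to 2 with replicates left out. With all 56 arrays, with composition covariates and without replicate 1 the count was 1, but the call was not Thbs2 in subline 23. The shares of all such comparisons called under these settings are not given here. The counts of single-subline calls are therefore not read as particular to matrix genes. The 45 of 64 member probe sets called positive with Col3a1 were 38 to 51 under the other settings. With all 56 arrays, which bring back the arrays that resembled the rest poorly, they were 51, and 3 more were called negative. Without the dimmer part they were 38 of 52. They were 45 with the block, 46 without tumour 1 of subline 21 and 43 without tumour 2 of subline 28. With Col4a1 as the reference they were 16, and with Thbs2 4. Apart from the shares printed above, those of all probe sets are not given for these settings. Agreement of arrays was 5 by either correlation. For the F test by gene, array quality weights called 21 of 48 gene results that were not called otherwise; the cause was not tested. Same-numbered tumours of different sublines did not deviate together on average (mean correlation -0.003 on array A and 0.004 on array B). A mean cannot show whether some replicate numbers pair tumours, and no test of it was made. The alternatives with single tumours, the high Gapdh array and the references Col4a1 and Thbs2 were chosen after seeing the data. Signal near the bacterial controls limits the array B probe sets of Col1a2, Fbln2, Nid1 and Tnc.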
